A study of Mus musculus with 16 samples.

Results

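Elastic fibre and matrix crosslinking genes were described on 16 microarrays of mouse heart ventricle. They were 10 genes, Eln, Fbn1, Fbln1, Fbln2, Fbln5, Mfap4, Mfap5, Lox, Loxl1 and Loxl2, found by gene name among the 19505 gene symbols that the non-control probes carry: 15 of 41174 probes carried one of these names, and at least 1 probe matched each gene. Of the 15 probes, 12 passed the filter on dim probes and were tested among 14684 probes. All heart donors were 129Sv mice, and hearts were taken 1 week after surgery. The 4 groups of 4 arrays were wild-type mice after sham surgery, wild-type mice after TAB, CHIP-/- mice after sham surgery and CHIP-/- mice after TAB. TAB is trans-aortic banding, a constriction of the aorta that loads the left ventricle with pressure, and CHIP, which CHIP-/- mice lack, is the product of Stub1, a ubiquitin ligase that also works with chaperones. The labels call the 4 arrays of a group biological replicates and do not say how many animals each held, and the sex of the mice is not given in the labels. Heart RNA was hybridised against RNA of whole neonatal mice (mixed 129Sv and C57BL/6), and a value is the log2 of their ratio, so a value compares arrays for 1 probe and does not rank genes by abundance.

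Elastic fibres let tissue recoil after stretch. Their core is crosslinked elastin, laid down on a scaffold of fibrillin microfibrils with the help of fibulins and microfibril-associated proteins. Enzymes of the lysyl oxidase family, which need copper, oxidise lysines in elastin and collagen so that the chains become covalently linked, a step that stiffens matrix. In the ventricle these proteins come mainly from fibroblasts and from the walls of vessels.

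Promoter windows were available in the RefSeq table (GRCm38.p6) for 4 of the 10 genes, Fbn1, Fbln1, Fbln2 and Fbln5. Windows of 300 bases, from 250 before to 50 after the start site, are printed for Fbn1, Fbln2 and Fbln5, which were higher after TAB in both genotypes, and for Fbln1, which passed the test in CHIP-/- hearts and not in wild type. The table holds 6 windows for these genes, with 2 each for Fbln1 and Fbln5; those of Fbln1 largely overlap, and 1 of them is printed. Capitals mark matches, on either strand, to the letters of a GC box (GGGCGG) or a SMAD box (CAGAC), the core letters to which SMAD proteins, the transcription factors downstream of TGF-beta, bind.
Fbn1, chr2:125506389-125506688, minus strand: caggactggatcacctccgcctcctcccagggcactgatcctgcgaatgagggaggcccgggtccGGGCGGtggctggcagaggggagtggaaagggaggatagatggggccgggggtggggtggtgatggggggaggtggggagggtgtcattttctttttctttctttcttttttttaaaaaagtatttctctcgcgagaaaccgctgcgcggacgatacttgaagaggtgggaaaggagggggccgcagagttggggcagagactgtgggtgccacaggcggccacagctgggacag
Fbln2, chr6:91212514-91212813, plus strand: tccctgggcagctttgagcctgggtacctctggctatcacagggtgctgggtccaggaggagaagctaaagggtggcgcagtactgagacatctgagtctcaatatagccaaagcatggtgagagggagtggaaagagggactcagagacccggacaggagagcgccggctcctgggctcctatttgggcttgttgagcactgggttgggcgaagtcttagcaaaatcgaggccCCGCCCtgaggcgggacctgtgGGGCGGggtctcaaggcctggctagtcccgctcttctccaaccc
Fbln5, chr12:101818435-101818734, minus strand: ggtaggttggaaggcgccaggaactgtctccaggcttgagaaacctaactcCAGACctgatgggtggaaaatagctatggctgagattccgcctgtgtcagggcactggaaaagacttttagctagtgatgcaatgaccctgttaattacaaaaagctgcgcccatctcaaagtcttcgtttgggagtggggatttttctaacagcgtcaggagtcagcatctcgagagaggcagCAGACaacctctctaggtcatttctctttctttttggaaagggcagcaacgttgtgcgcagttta
Fbln5, chr12:101819070-101819369, minus strand: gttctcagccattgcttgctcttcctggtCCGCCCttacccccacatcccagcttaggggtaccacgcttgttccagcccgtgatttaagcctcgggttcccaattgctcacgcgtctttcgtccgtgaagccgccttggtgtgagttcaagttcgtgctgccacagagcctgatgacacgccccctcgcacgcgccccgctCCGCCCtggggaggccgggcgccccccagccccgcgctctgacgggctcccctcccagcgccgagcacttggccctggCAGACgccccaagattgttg
Fbln1, chr15:85205758-85206057, plus strand: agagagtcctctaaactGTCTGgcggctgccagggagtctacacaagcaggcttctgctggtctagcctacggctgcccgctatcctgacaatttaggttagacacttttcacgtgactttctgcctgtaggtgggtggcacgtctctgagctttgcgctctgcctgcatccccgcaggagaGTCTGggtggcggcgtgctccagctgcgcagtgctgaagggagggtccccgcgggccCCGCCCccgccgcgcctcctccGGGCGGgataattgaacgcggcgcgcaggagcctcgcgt
The Fbn1 window held 1 GC box, at position -185 from the start site, and no SMAD box. The Fbln2 window held 2 GC boxes and no SMAD box. Of the Fbln5 windows, the one listed above the other held 2 SMAD boxes and no GC box, and the other 2 GC boxes and 1 SMAD box. The printed Fbln1 window held 2 GC boxes and 2 SMAD boxes, and its other window (chr15:85205699-85205998) 2 SMAD boxes and no GC box. A GC box was found in 35.7% and a SMAD box in 49.6% of the 32851 promoter windows of the table, all of the same length. None of the 6 windows matched the AP-1 letters TGANTCA (7.81% of all windows), the TEAD letters GGAATG (14.7%), the TATA letters TATAAA (13.6%) or the CArG box (1.63%), and no 2 matches overlapped. These matches describe letters in a window and do not show binding.

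Between 27.0% and 37.7% of spots per array were well above background for heart RNA, and the number of arrays limits the precision. Arrays of a group correlated at 0.950 to 0.979 across probes, against 0.839 for the least alike pair. The 4 groups lay on 4 separate slides, and an effect of the slide cannot be told apart from one of the group. Stub1, the disrupted gene, lay between -1.47 and -1.17 on the 8 CHIP-/- arrays and between -0.41 and 0.43 on the 8 wild-type arrays; the position of its probe relative to the deletion is unknown here. Of the cardiomyocyte markers, 8 of 10 were measured, with a mean log2 ratio of 3.19 to 3.88 on every array (their shift with TAB is given with the other cell markers), and none of the 8 lymphocyte markers passed the filter. The atrial transcript Myl7 stood out on wild-type sham arrays 1 and 3 and CHIP-/- sham array 1, at 3.82, 1.89 and 2.20, against at most 0.17 on the other arrays. The Y-linked transcript Ddx3y was well above background on wild-type sham array 4 and CHIP-/- sham arrays 2 and 4 and on no TAB array. Wild-type sham array 4 also had the highest value of its group for 6 of the 10 genes, and wild-type TAB array 1 the lowest for 8 of the 10. The same sham array was high for 2 hypertrophy markers, Nppa (5.18) and Myh7 (0.54), and for the matrix gene Postn (-1.76). The other wild-type sham arrays lay at 3.76 to 4.02, -1.17 to -0.79 and -3.52 to -3.43. Why this array stood apart was not tested. Among CHIP-/- TAB arrays, array 2 was lowest for 8 genes and array 3 highest for 7. Wild-type TAB array 1 and CHIP-/- TAB array 2 also had the lowest shares of spots well above background, at 27.0% and 29.2%. Whether that signal bears on their low values was not tested.

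For 8 of the 10 genes the group means ran in 1 order, from CHIP-/- sham through wild-type sham and wild-type TAB to CHIP-/- TAB. In Fbln5 both sham groups changed places, and in Fbln1 wild-type TAB lay below wild-type sham. No pair of neighbouring sham groups differed by limma's test, and the steps between the other neighbours are given below. On each sham array 1 of the 10 genes, Fbln1, had a ratio above the neonatal reference. On the wild-type TAB arrays 3, 6, 4 and 4 genes were above it, and on the CHIP-/- TAB arrays 7, 6, 8 and 7.

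**Figure D1:**
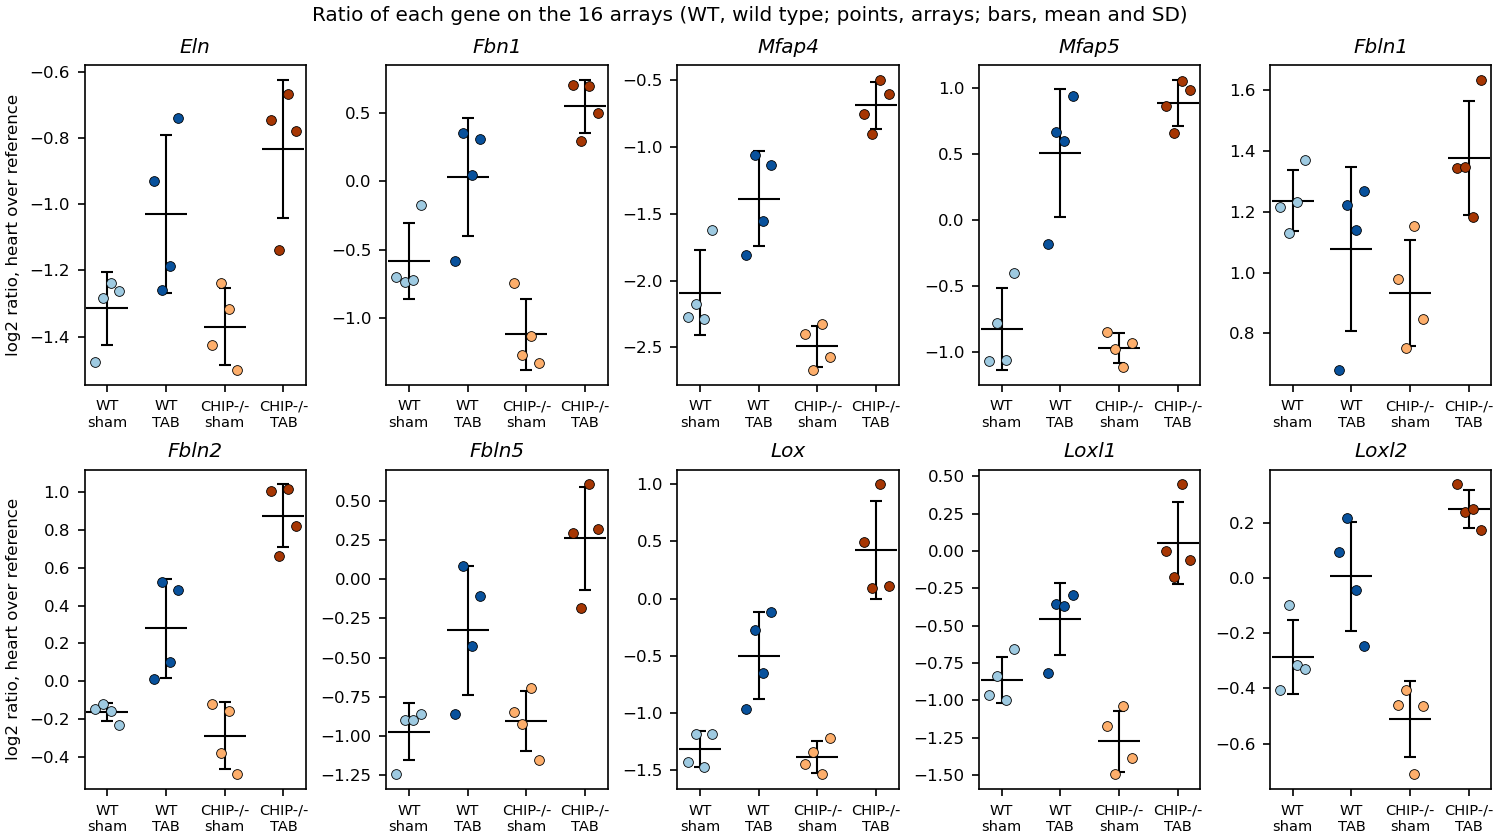
Log2 ratio of heart over reference RNA for the 10 genes (1 probe each) on each array, by group; points are arrays, horizontal bars group means and error bars SD over 4 arrays, and each panel has its own vertical axis. The 4 CHIP-/- TAB arrays lie above all 4 CHIP-/- sham arrays in each of the 10 panels, while the wild-type groups overlap in 7.

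With pressure overload nearly the whole set was higher in wild-type hearts, and all of it in CHIP-/- hearts. In wild type 9 of the 10 genes rose with TAB, by 0.29 to 1.33, and Fbln1 did not pass; over all probes 33.4% were called in either direction and 16.3% were called higher. The median difference of the 10 genes was 0.53, against -0.01 over all probes. In CHIP-/- all 10 rose, by 0.44 to 1.86, where 44% of all probes were called and 21.3% were called higher, with a median of 1.25 against -0.02 over all probes. Sham and TAB arrays did not overlap for 3 genes in wild type (Fbln2, Mfap5 and Lox), against 14.6% of all probes higher without overlap, and for all 10 in CHIP-/-, against 19.2%. Lox passed the filter on dim probes through TAB arrays alone, so its place in these counts is not independent of that filter. The wild-type count was the less stable of both: it was 4 with median centring of arrays in place of loess (3 higher and 1 lower), a setting that puts the median of all probes at -0.18, and 4 without the 3 sham arrays high in Myl7. In CHIP-/- these settings gave 8 and 10. The median of all probes, -0.18 in wild type and -0.21 in CHIP-/-, applies to each TAB difference given below with median centring.

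Elastin itself had the smallest fitted rise among the 9 genes that passed in wild type. Eln, which encodes the elastic core of the fibre, had log2 ratios of -1.48, -1.28, -1.24 and -1.26 on the wild-type sham arrays 1 to 4 and -0.93, -1.26, -1.19 and -0.74 on the wild-type TAB arrays. For Eln the CHIP-/- arrays gave -1.42, -1.24, -1.32 and -1.50 after sham and -0.75, -1.14, -0.67 and -0.78 after TAB. Wild-type TAB arrays 1 and 4 were high, and arrays 2 and 3 lay within or beside the sham range. The TAB difference was 0.29 (SE 0.11, adjusted p = 0.043) in wild type and 0.54 (SE 0.11, adjusted p = 0.00026) in CHIP-/-. The wild-type call is marginal: it was lost in 11 of 17 other settings and without any 1 of the 4 wild-type sham arrays, wild-type TAB array 1 or wild-type TAB array 4 (0.19 without the last). In wild type median centring gave 0.04, or 0.22 relative to the median of all probes. In CHIP-/- median centring gave 0.25 (adjusted p = 0.072), or 0.46 relative to that median, and the heart channel alone 0.32.

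Among the microfibril genes, fibrillin 1 and both microfibril-associated proteins rose in both genotypes. Fbn1 encodes the main fibrillin of the microfibril scaffold. Its ratios were -0.70, -0.74, -0.72 and -0.17 on the wild-type sham arrays 1 to 4 and -0.59, 0.35, 0.05 and 0.31 on the wild-type TAB arrays. For Fbn1 the CHIP-/- arrays gave -0.75, -1.27, -1.13 and -1.33 after sham and 0.71, 0.30, 0.70 and 0.50 after TAB. The wild-type groups overlapped through sham array 4 and TAB array 1, whereas the CHIP-/- groups were well apart. Fbn1 rose by 0.61 in wild type (SE 0.16, adjusted p = 0.0057) and by 1.67 in CHIP-/- (SE 0.16, adjusted p = 1.8e-08), a 3.19-fold rise. The wild-type difference was 0.49 without the 3 sham arrays high in Myl7 (adjusted p = 0.079), 0.34 with median centring (adjusted p = 0.054) and 0.96 without wild-type sham array 4 and TAB array 1. A dimmer Fbn1 probe, well above background on 2 to 4 arrays of each group, rose by 0.41 and 0.83.

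Mfap4 encodes a microfibril-associated protein that binds elastin and collagen. Its ratios were -2.27, -2.18, -2.29 and -1.62 on the wild-type sham arrays 1 to 4 and -1.81, -1.06, -1.56 and -1.13 on the wild-type TAB arrays. For Mfap4 the CHIP-/- arrays gave -2.40, -2.67, -2.33 and -2.57 after sham and -0.75, -0.90, -0.50 and -0.60 after TAB. Every CHIP-/- TAB array was above every other array. Mfap4 rose by 0.70 (SE 0.14, adjusted p = 0.00055) and by 1.80 (SE 0.14, adjusted p = 7.7e-10), and the wild-type value with median centring was 0.38 (adjusted p = 0.044).

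Mfap5 encodes MAGP-2, another small protein of the microfibril, and had the largest fitted rise of the set in both genotypes, although Lox or Mfap4 ranked first under some of the other settings. Its ratios were -1.06, -0.78, -1.06 and -0.40 on the wild-type sham arrays 1 to 4 and -0.18, 0.67, 0.60 and 0.95 on the wild-type TAB arrays. For Mfap5 the CHIP-/- arrays gave -0.85, -0.98, -1.11 and -0.93 after sham and 0.87, 0.66, 1.05 and 0.99 after TAB. Sham and TAB arrays were apart in both genotypes, and the TAB arrays of both genotypes overlapped. The rise was 1.33 in wild type (SE 0.17, adjusted p = 1.9e-06) and 1.86 in CHIP-/- (SE 0.17, adjusted p = 5e-09). Its probe was well above background on 3 of 4 wild-type sham arrays and 2 of 4 CHIP-/- sham arrays, and the deposited log ratios, centred, put the rises at 2.35 and 3.29.

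The fibulins, which bridge elastin, microfibrils and cell surfaces, did not move alike. Fbln2 had -0.15, -0.12, -0.16 and -0.23 on the wild-type sham arrays 1 to 4 and 0.01, 0.52, 0.10 and 0.48 on the wild-type TAB arrays. For Fbln2 the CHIP-/- arrays gave -0.12, -0.38, -0.16 and -0.49 after sham and 1.01, 0.66, 1.02 and 0.82 after TAB. All CHIP-/- TAB arrays exceeded all wild-type TAB arrays, which in turn exceeded both sham groups. Fbln2 rose by 0.45 in wild type (SE 0.10, adjusted p = 0.0017) and by 1.17 in CHIP-/- (SE 0.10, adjusted p = 3.7e-09); with median centring these were 0.09 (adjusted p = 0.66) and 0.74.

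Fbln5 encodes the fibulin that tethers elastin and lysyl oxidase-like 1 to microfibrils. It had -1.25, -0.90, -0.90 and -0.86 on the wild-type sham arrays 1 to 4 and -0.86, 0.08, -0.43 and -0.10 on the wild-type TAB arrays. For Fbln5 the CHIP-/- arrays gave -0.85, -0.92, -0.69 and -1.16 after sham and 0.30, -0.18, 0.61 and 0.32 after TAB. Wild-type TAB array 1 sat at the top of the sham range. The rise was 0.65 (SE 0.16, adjusted p = 0.0027) in wild type and 1.17 (SE 0.16, adjusted p = 2.1e-06) in CHIP-/-. In wild type it was 0.55 without the arrays high in Myl7 (adjusted p = 0.053) and 0.36 with median centring (adjusted p = 0.054). The other 2 Fbln5 probes were not well above background on any array.

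Fbln1 encodes a fibulin of vessel walls and valves. It had 1.22, 1.13, 1.23 and 1.37 on the wild-type sham arrays 1 to 4 and 0.68, 1.22, 1.14 and 1.27 on the wild-type TAB arrays. For Fbln1 the CHIP-/- arrays gave 0.98, 0.75, 1.16 and 0.85 after sham and 1.34, 1.35, 1.18 and 1.64 after TAB. In wild type 3 TAB arrays lay in the sham range and array 1 below it, with a difference of -0.16 (95% interval -0.39 to 0.07, adjusted p = 0.29). With median centring that difference was -0.44 and passed (adjusted p = 0.0067), or -0.26 relative to the median of all probes, and without wild-type sham array 4 and TAB array 1 it was 0.02. In CHIP-/- Fbln1 rose by 0.44 (SE 0.11, adjusted p = 0.0024); this was 0.10 with median centring (adjusted p = 0.53) and 0.31 without the 3 arrays with Y-linked transcripts (adjusted p = 0.081). A second Fbln1 probe gave -0.14 and 0.47.

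The crosslinking enzymes rose in both genotypes. Lox, the founding lysyl oxidase, had -1.43, -1.19, -1.47 and -1.19 on the wild-type sham arrays 1 to 4 and -0.97, -0.27, -0.65 and -0.11 on the wild-type TAB arrays. For Lox the CHIP-/- arrays gave -1.45, -1.34, -1.54 and -1.22 after sham and 0.50, 0.10, 1.00 and 0.11 after TAB. The 3 levels were separate: both sham groups together, wild-type TAB above them, and CHIP-/- TAB above all. Lox was not well above background on any sham array, and it passed the filter on dim probes through TAB arrays alone. With sham signals raised, where lower, to the dimmest measured signal of their array, its mean rose 1.69-fold in wild type and 3.09-fold in CHIP-/-. Of the TAB arrays, 3 of 4 measured it in wild type and all 4 in CHIP-/-. These folds carry no interval and are not lower limits, as other settings gave log2 differences as low as 0.57 and 1.41. The fitted differences were 0.82 (SE 0.17, adjusted p = 0.00063) and 1.82 (SE 0.17, adjusted p = 8.2e-09). They depended on how dim spots were treated, at 2.63 and 4.79 in the deposited log ratios. With the deposited series table and the intensity trend the wild-type call was lost (2.63, adjusted p = 0.26). That call was kept in 15 of the 16 other settings, including that table without the trend.

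Loxl1, the family member required for elastin renewal in adult tissue, had -0.96, -0.83, -1.0 and -0.66 on the wild-type sham arrays 1 to 4 and -0.82, -0.35, -0.37 and -0.29 on the wild-type TAB arrays. For Loxl1 the CHIP-/- arrays gave -1.17, -1.50, -1.04 and -1.38 after sham and -0.00, -0.17, 0.45 and -0.06 after TAB. Wild-type TAB array 1 again lay within the sham range. Loxl1 rose by 0.41 in wild type (SE 0.13, adjusted p = 0.015) and by 1.33 in CHIP-/- (SE 0.13, adjusted p = 1e-08). The wild-type call was lost without TAB array 4 (0.35, adjusted p = 0.054), without the arrays high in Myl7 (0.29, adjusted p = 0.21) and with median centring (0.13, adjusted p = 0.46).

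Loxl2, which crosslinks collagen IV and fibrillar collagen, was measured by 2 probes. The tested probe had -0.41, -0.10, -0.31 and -0.33 on the wild-type sham arrays 1 to 4 and 0.09, 0.22, -0.04 and -0.25 on the wild-type TAB arrays. For Loxl2 the CHIP-/- arrays gave -0.46, -0.41, -0.71 and -0.47 after sham and 0.34, 0.24, 0.25 and 0.17 after TAB. Its wild-type groups overlapped and its CHIP-/- groups did not. It rose by 0.29 in wild type (SE 0.10, adjusted p = 0.030), a call lost in 11 of 16 other settings and without wild-type sham array 1, 3 or 4 or TAB array 1 or 2. In CHIP-/- this probe was not well above background on any sham array. With sham signals treated as for Lox, its mean was 1.51-fold higher after TAB. This fold carries no interval and is not a lower limit, as the other settings gave log2 differences as low as 0.53. The fitted difference was 0.76 (SE 0.10, adjusted p = 1.8e-06). The other, brighter probe, well above background on all 16 arrays, was left out because CHIP-/- sham arrays 1 and 4 carried outlier marks on it. With marked spots kept it gave 0.71 in wild type (adjusted p = 0.00045) and 1.53 in CHIP-/- (adjusted p = 8.5e-09).

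**Figure D2:**
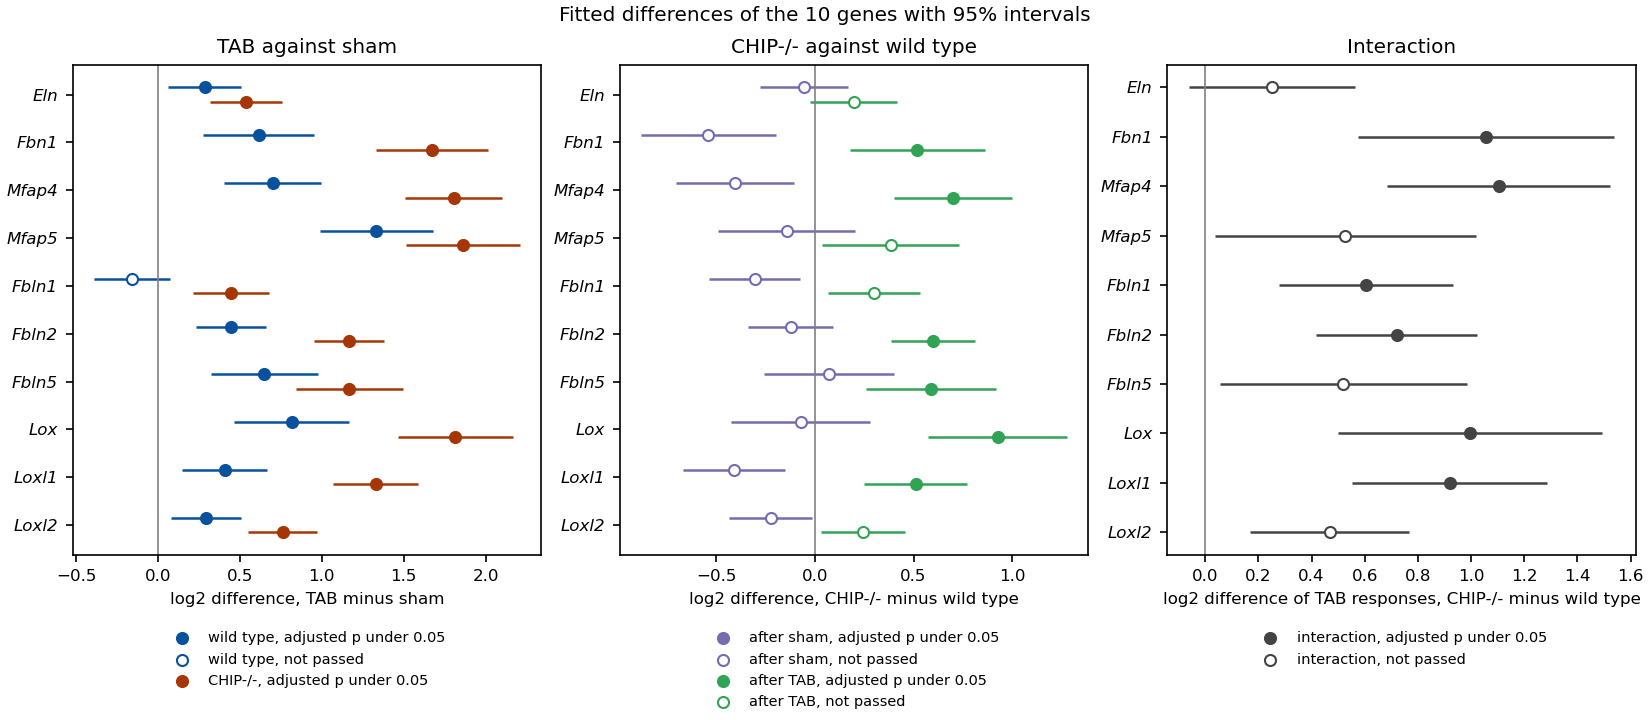
Fitted log2 differences of the 10 genes with 95% intervals for TAB against sham in each genotype (left), CHIP-/- against wild type after each surgery (middle) and the interaction (right); filled points passed at an adjusted p under 0.05 and open points did not. The TAB differences lie to the right of 0 for all genes but Fbln1 in wild type, and all 10 interaction values are positive, from 0.25 to 1.10.

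The comparison of genotypes after sham asks whether loss of CHIP alters these genes without overload. None of the 10 passed by limma's test, and 0.0341% of all probes did (5 probes; 1127 had an unadjusted p under 0.05). In 9 of the 10 the CHIP-/- mean was the lower one, with a median difference of -0.18 against -0.01 over all probes. Groups did not overlap for 3 genes, all lower in CHIP-/-, against 3.09% of all probes. These were Fbn1 at -0.54 (95% interval -0.88 to -0.20, adjusted p = 0.28), Loxl1 at -0.41 (-0.67 to -0.15, adjusted p = 0.28) and Mfap4 at -0.40 (-0.70 to -0.11, adjusted p = 0.42). The nearest Fbn1 arrays of both groups lay at -0.75 and -0.74, and its difference ran from -0.66 to -0.40 with 1 array at a time left out and from -0.84 to -0.22 over the other settings. The dimmer Fbn1 probe was at -0.11 (adjusted p = 0.91), and its groups overlapped. Lox, at -0.07, was not well above background in either sham group, and Loxl2 was at -0.22 (adjusted p = 0.61).

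After TAB, CHIP-/- hearts held more of most of these transcripts than wild-type hearts. All 10 differences were positive, with a median of 0.51 against -0.01 over all probes, and 6 passed: Fbn1, Fbln2, Fbln5, Mfap4, Lox and Loxl1. Over all probes 9.91% were called and 4.43% were called higher. Lox differed by 0.93 (SE 0.17, adjusted p = 0.00083), a 1.90-fold higher level in CHIP-/-, and its lowest CHIP-/- array was above its highest wild-type array. That size depends on how dim spots are treated: it was 1.67 in the deposited log ratios (adjusted p = 0.0071) and 1.67 with the deposited series table, where it did not pass with the intensity trend (adjusted p = 0.61) and did without it (adjusted p = 0.022). Mfap4 differed by 0.70 (SE 0.14, adjusted p = 0.0023) and Fbln2 by 0.60 (SE 0.10, adjusted p = 0.00049), also without overlap. Groups did not overlap for 4 genes, these and Loxl1, against 5.59% of all probes higher without overlap. Lox was well above background on 3 wild-type TAB and 4 CHIP-/- TAB arrays and on no sham array. Without the CHIP-/- TAB arrays it would not have reached the 4 arrays that the filter on dim probes asks for. Its place in these counts is therefore not independent of that filter.

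The calls for Loxl1, Fbln5 and Fbn1 were lost on leaving out single arrays. Loxl1 differed by 0.51 (adjusted p = 0.0098), 0.39 without wild-type TAB array 1 (adjusted p = 0.053) and 0.38 without CHIP-/- TAB array 3 (adjusted p = 0.057). Fbln5 differed by 0.59 (adjusted p = 0.018); without wild-type TAB array 1, wild-type TAB array 3 or CHIP-/- TAB array 3 it was 0.41, 0.56 and 0.47 and no longer passed (adjusted p = 0.092, 0.054 and 0.091). Fbn1 differed by 0.52 (adjusted p = 0.047), with a value of 0.31 without wild-type TAB array 1 (adjusted p = 0.20); its call was lost in 9 of 17 other settings and on leaving out any 1 of 9 arrays, which were wild-type sham 2 and 3, wild-type TAB 1 and 3, CHIP-/- sham 2 and 3 and CHIP-/- TAB 1, 3 and 4. The dimmer Fbn1 probe was at 0.31 and did not pass (adjusted p = 0.12), though its groups did not overlap. The count of 6 fell to 3 without wild-type TAB array 1, to 3 without CHIP-/- TAB array 3 and to 2 with the deposited series table.

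The 4 genes that did not pass had intervals that reached well above 0. Eln was at 0.20 (95% interval -0.03 to 0.42), Loxl2 at 0.24 (0.03 to 0.46), Fbln1 at 0.30 (0.07 to 0.53) and Mfap5 at 0.38 (0.04 to 0.73). Mfap5 passed without wild-type TAB array 4 (0.53, adjusted p = 0.043), and Fbln1 passed in the heart channel alone (0.37, adjusted p = 0.030). The second Fbln1 probe passed at 0.42 (adjusted p = 0.011), and the brighter Loxl2 probe, with outlier spots kept, at 0.52 (adjusted p = 0.021).

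The interaction tests whether the response to TAB itself differed between genotypes. It was positive for all 10 genes, with a median of 0.66 against 0.00 over all probes, and 6 passed: Mfap4 at 1.10 (SE 0.20, adjusted p = 0.0029), Fbn1 at 1.06 (SE 0.23, adjusted p = 0.011), Lox at 1.00 (SE 0.24, adjusted p = 0.017), Loxl1 at 0.92 (SE 0.18, adjusted p = 0.0045), Fbln2 at 0.72 (SE 0.15, adjusted p = 0.0062) and Fbln1 at 0.60 (SE 0.16, adjusted p = 0.029). Over all probes 4.37% were called and 2.32% were called higher. The dimmer Fbn1 probe was at 0.42 (SE 0.17, adjusted p = 0.19) and did not pass. The second Fbln1 probe passed at 0.61 (adjusted p = 0.017). An interaction is the genotype difference after TAB minus that after sham, so part of it can lie in the sham groups, and all 5 comparisons draw on the same 16 arrays. For Fbn1 it joined 0.52 after TAB with -0.54 after sham, for Mfap4 0.70 with -0.40, for Loxl1 0.51 with -0.41 and for Fbln1 0.30 with -0.30. For Fbln2 and Lox it lay mainly in the TAB groups, at 0.60 with -0.12 and 0.93 with -0.07, though the sham levels of Lox were not well above background. The place of Lox among the 6 is not independent of the filter on dim probes.

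The interaction calls did not hold in every setting, although with 1 array at a time left out the count stayed between 5 and 7. Without the 3 sham arrays with Y-linked transcripts none of the 10 passed, and of all probes 0.749% were called; the 6 values were then 0.82 for Mfap4, 0.74 for Fbn1, 1.06 for Lox, 0.69 for Loxl1, 0.59 for Fbln2 and 0.43 for Fbln1, with adjusted p from 0.059 to 0.33. Of these 6 values Lox alone was larger than with all arrays (1.00), and the others were smaller. With all arrays 4.37% of all probes were called. Leaving out those 3 arrays also lowers power, so an effect of which arrays they were cannot be told apart from one of their number. Without wild-type sham array 4 and TAB array 1 the count was 4, with Lox at 0.80 (adjusted p = 0.088) and Fbln1 at 0.43 (adjusted p = 0.12). With the deposited series table none passed either, although the median over the 10 genes was larger, at 1.06. Fbln1 lost its call on leaving out wild-type sham array 4, wild-type TAB array 1, CHIP-/- sham array 2 or 4 or CHIP-/- TAB array 4, with values from 0.47 to 0.58. Mfap5, Fbln5, Loxl2 and Eln did not pass, at 0.53, 0.52, 0.47 and 0.25. Loxl2 passed without wild-type TAB array 2 (0.54, adjusted p = 0.033), and its brighter probe passed at 0.82 with outlier spots kept (adjusted p = 0.020).

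**Figure D3:**
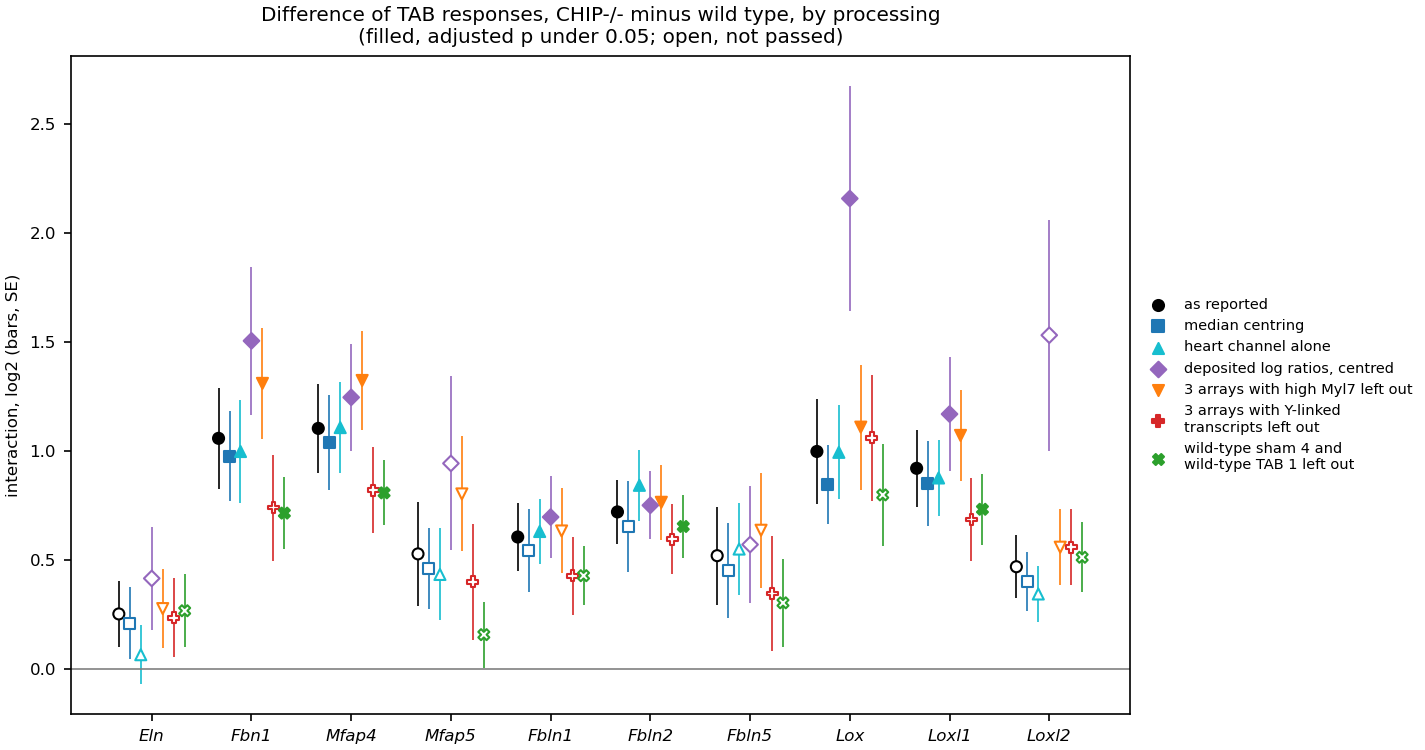
Interaction of genotype and TAB (log2, bars are SE) for each gene as reported and under 6 other settings; filled symbols passed at an adjusted p under 0.05 and open symbols did not. All values are above 0, and the red symbols, without the 3 sham arrays with Y-linked transcripts, are open for all 10 genes.

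Genes that work beside these were described by lists. Over all probes 16.3% were called higher and 17.1% lower with TAB in wild type, and 21.3% and 22.7% in CHIP-/-. Between genotypes after TAB 4.43% were called higher and 5.48% lower, and by the interaction test 2.32% and 2.05%. These shares belong beside each list count below, those of the cell markers included. Of 15 other genes of crosslinking, collagen processing and copper supply, 12 were measured; 7 rose in wild type and 10 in CHIP-/- with TAB, and none fell. The largest rises were those of Postn, encoding periostin, a matrix protein that helps activate lysyl oxidase, at 2.31 and 4.67, and Sparc, a collagen-binding protein, at 0.95 and 1.71. They were followed in wild type by Pcolce, an enhancer of procollagen processing (0.53), and in CHIP-/- by Tgm2, a transglutaminase that crosslinks proteins (1.19). After TAB 8 of the 12 were higher in CHIP-/- than in wild type, with a median of 0.37, led by Postn (1.73), Fn1, encoding fibronectin (0.65), and Tgm2 (0.64), and 5 had a positive interaction that passed.

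Among 6 measured of 11 genes for elastin-degrading proteases, 3 rose in wild type and all 6 in CHIP-/-. The leading ones were Ctss, encoding the macrophage elastase cathepsin S, at 1.06 and 2.06, Mmp14, a membrane metalloproteinase, at 0.58 and 1.49, and, in wild type, Ctsl (0.41), and in CHIP-/-, Ctsb (0.83), which encode lysosomal cathepsins. After TAB 4 of 6 were higher in CHIP-/-.

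The other elastic fibre and microfibril genes moved in both directions. Of 21, 18 were measured. In wild type 6 rose and 3 fell, and in CHIP-/- 9 rose and 4 fell, with medians of 0.03 and 0.19. The counts of falls were near the shares of all probes called lower, 17.1% in wild type and 22.7% in CHIP-/-. Ltbp2, a microfibril protein related to the TGF-beta binding proteins, rose by 1.14 and 2.64, and Efemp2, the fibulin-4 that recruits lysyl oxidase to elastin, by 0.63 and 1.21. Emilin2, of the elastin interface, fell by 0.59 and 0.86. Hmcn1 fell by 0.45 and 0.51, Adamtsl4 by 0.34 and 0.61, and Efemp1 by 0.60 in CHIP-/-. After TAB 4 were higher in CHIP-/-, led by Ltbp2 (1.23), Ltbp3 (0.61) and Efemp2 (0.60), and 2 were lower, Adamtsl4 (-0.38) and Ltbp4 (-0.30). None of these lists had a called gene between genotypes after sham.

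Markers of the cells that make or remodel this matrix also shifted, and in bulk tissue more cells of a type and more RNA per cell cannot be told apart. The mean ratio over 14 of 14 fibroblast markers was -0.23 to -0.07 in wild-type sham, 0.06 to 0.33 in wild-type TAB, -0.42 to -0.21 in CHIP-/- sham and 0.26 to 0.35 in CHIP-/- TAB. With TAB 8 rose and 1 fell in wild type and 9 rose and 2 fell in CHIP-/-; Gsn fell in both, and Scara5 in CHIP-/-. Both TAB groups overlapped in this mean, and between genotypes after TAB 1 fibroblast marker was higher (Lum, 0.51) and 1 lower (Gsn, -0.81). By the interaction test 3 fibroblast markers were higher, Lum (0.92), Col15a1 (0.88) and Thy1 (0.43), and Gsn was lower (-0.66); 11 of the 14 values were positive, with a median of 0.28. Over the same arrays the mean of the 10 elastic fibre and crosslinking genes was -0.54 to 0.04 in wild-type TAB and 0.09 to 0.51 in CHIP-/- TAB, without overlap.

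Smooth muscle and pericyte markers (14 of 14 measured) were at -0.34 to -0.21 and 0.04 to 0.24 in wild-type sham and TAB, and at -0.36 to -0.30 and 0.03 to 0.19 in CHIP-/-. After TAB 1 was higher in CHIP-/- (Cnn1, 1.32) and 2 lower (Kcnj8 and Rgs5). Endothelial markers (12 of 12) were at 0.70 to 0.80, 0.87 to 1.17, 0.71 to 0.79 and 0.81 to 0.94 in the 4 groups, and 3 were lower in CHIP-/- after TAB. Macrophage markers (11 of 12) were at -0.26 to -0.10, 0.13 to 0.24, -0.36 to -0.20 and 0.42 to 0.67, and after TAB 6 of 11 were higher in CHIP-/- and none lower. By the interaction test 6 of the 11 macrophage markers were higher, with a median of 0.42, against 1 higher and 1 lower of 14 smooth muscle and 3 lower of 12 endothelial markers. The macrophage mean did not overlap between genotypes after TAB, and wild-type TAB array 1 was low for fibroblast, smooth muscle and endothelial markers as it was for the elastic fibre genes. Cardiomyocyte markers shifted the other way: their mean was 3.72 to 3.88 in wild-type sham, 3.44 to 3.69 in wild-type TAB, 3.49 to 3.77 in CHIP-/- sham and 3.19 to 3.34 in CHIP-/- TAB. With TAB 5 of 8 fell in wild type, and in CHIP-/- 7 fell and Tnnt2 rose. After TAB 4 were lower in CHIP-/- than in wild type (Myh6, Tnni3, Myl3 and Atp2a2) and Tnnt2 was higher, and 1 had a negative interaction that passed (Tnni3, -0.63). The part of these shifts in the results above was not tested.

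**Figure D4:**
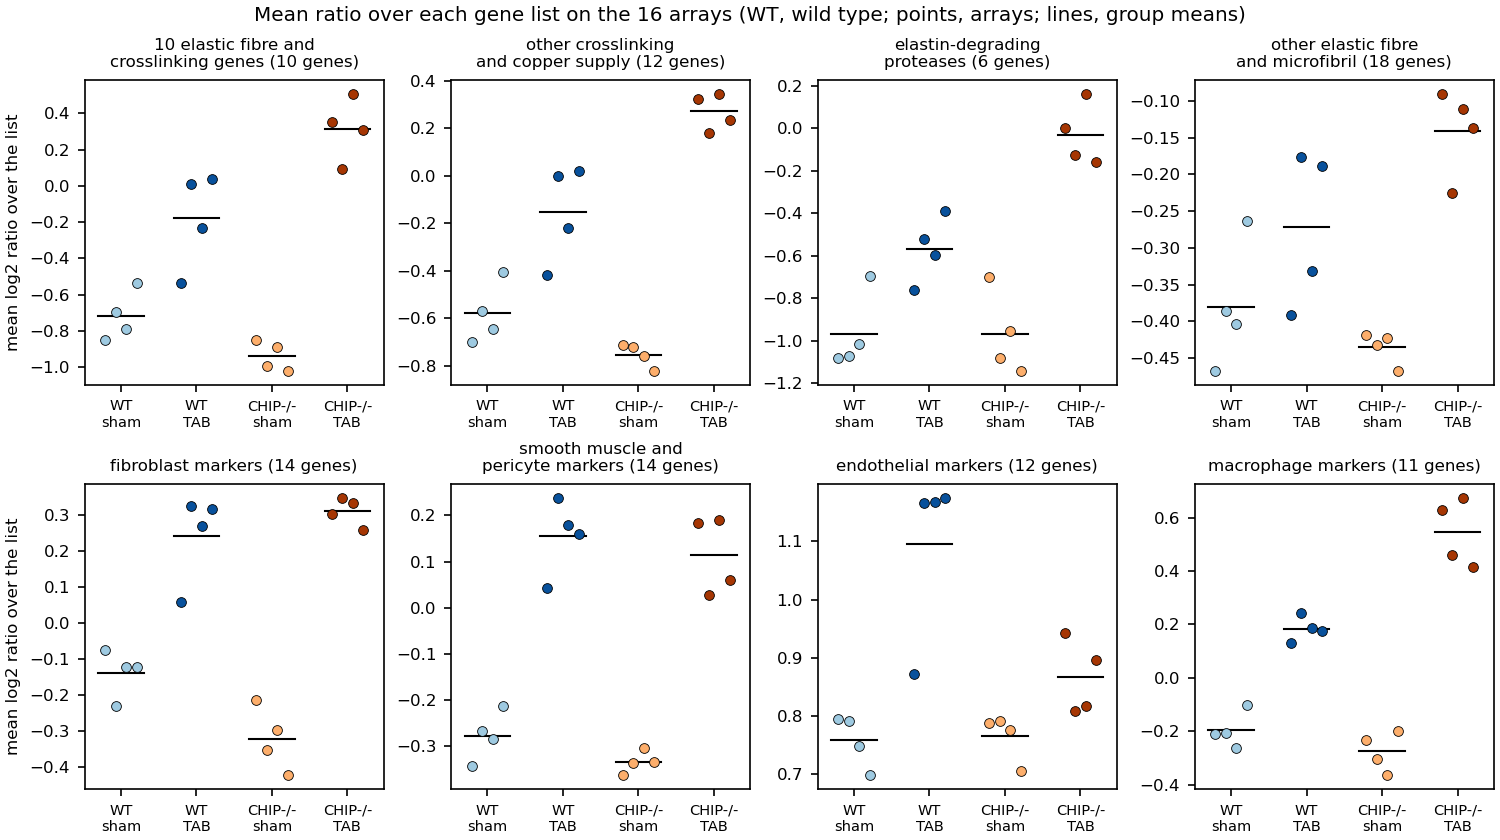
Mean log2 ratio over the measured genes of each list on each array, by group; points are arrays, horizontal lines group means, and each panel has its own vertical axis. The upper left panel shows the 10 elastic fibre and crosslinking genes, whose means run from -1.02 to -0.54 on sham arrays and from 0.09 to 0.51 on CHIP-/- TAB arrays; in the lower panels the fibroblast and smooth muscle means of both TAB groups overlap and the macrophage means do not.

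Across the 16 arrays the named probes most like Eln, Fbn1 and Lox were sought among 13255 probes by Pearson correlation, as a description; the arrays fall into 4 groups on 4 slides and share 1 reference, so a shared group pattern gives a high value. For Fbn1 they were Col16a1 (0.98), a collagen, Cilp (0.98), a cartilage matrix protein also made in fibrotic heart, and Fstl1 (0.98), a secreted glycoprotein. For Lox they included Vmp1 (0.99), a membrane protein of autophagy, and Lmna (0.98), encoding nuclear lamins. For Eln the values were lower, at 0.90 for Sat1, a polyamine acetyltransferase, Arpc4, of the actin-branching complex, and Cald1, encoding caldesmon.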

How the data were processed

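Gene expression was measured on 16 two-colour Agilent arrays. Per the labels, heart RNA (500 ng) carried Cy5 and the reference RNA carried Cy3, in the same dye orientation throughout. Per the file headers, Feature Extraction 9.1.3.1 made the deposited spot intensities and the deposited log10 ratios, which were background-subtracted and dye-normalized. A deposited table of the whole series holds log2 ratios for 14322 probes, which matched the scanner files' log ratios centred on each probe (correlations of at least 0.9998 per array). The choice of its probes is not described in those sources. Signals of the CHIP-/- TAB arrays had been saved with 3 significant digits and 47 gene names altered; names were taken from the other files by probe.

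Mean intensities were corrected with normexp (offset 50, on median local background) and normalized within arrays by loess in limma 3.58.1 (R 4.3.3, data.table package, version 1.17.8), with controls at weight 0, outlier spots left out, saturated spots kept and spots of a probe averaged. Tested probes had to exceed background clearly with heart RNA on 4 or more arrays and to have values on 15 or more, a minimum added after the design was fixed, which left 14684. A mean per group over all 16 arrays was fitted with an intensity trend; the 5 comparisons use limma's moderated test with Benjamini-Hochberg adjustment over all probes at 0.05, with 95% intervals. A gene is counted by its tested probe of highest mean intensity. The code was tested on simulated data. The replicate numbers were not taken to pair samples. Named genes were all 10, and of each list at most the 3 largest called differences per comparison and genes against its direction. Members and lists were chosen with earlier results of these data known. Alternatives covered background, normalization, filters, probes, error model, the series table, a replicate block and each array left out. Promoters are RefSeq's (GRCm38.p6). A gene among those most like Lox is not reported here.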

Additional observations from a re-analysis of the deposited data

Results flagged for a closer look

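In a few cases 1 array stood apart from the other 3 of its group, measured as its gap to the nearest array divided by the group's range, against the 95% limit of Dixon's test for 4 arrays. Fbn1 and Mfap4 were high on wild-type sham array 4, with shares of 0.925 and 0.835. Fbln5 was low on wild-type sham array 1 (0.894), and Loxl1 was low on wild-type TAB array 1 (0.858). These were 4 of 48 groups examined, and chance gives about 1 in 20.

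The TAB response differed between genotypes, by the interaction test, for 7 probes: Fbn1 (1.06), Mfap4 (1.10), Lox (1.00), Loxl1 (0.92), Fbln2 (0.72) and both Fbln1 probes (0.61 and 0.60). All were larger in CHIP-/-. The dimmer Fbn1 probe, at 0.42, did not pass. Lox was not well above background on any sham array, and its interaction ran from 0.80 to 2.18 over the settings tried.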

How the results depend on the processing

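The number of the 10 genes called was 9 (TAB in wild type), 10 (TAB in CHIP-/-), 0 (genotype after sham), 6 (genotype after TAB) and 6 (interaction). With 1 array at a time left out these ranged from 7 to 9, 10 to 10, 0 to 0, 3 to 7 and 5 to 7. Counts that moved by over 1.5 times were, for TAB in wild type, 4 with median centring, 4 without the 3 arrays high in Myl7 and 5 with the series table; for the genotype after TAB, 2 with the series table; and for the interaction, 0 with the series table (0.559% of all probes called) and 0 without the 3 arrays with Y-linked transcripts. The series table carries no intensity, so it was also fitted without the trend, a choice made after seeing those values: the counts were then 6, 10, 0, 3 and 0 (0.719% of all probes). Its medians were larger than those reported (0.63 for the genotype after TAB and 1.06 for the interaction); the cause of the lost calls was not tested. The 3 settings without arrays that stood apart were also chosen after seeing the data. Signs that turned belonged to differences that did not pass: Eln after sham, 0.0044 with median centring and 0.0377 in the heart channel alone; Lox after sham, 0.0066 with median centring; Fbln2 after sham, 0.0028 without the arrays with Y-linked transcripts; Fbln5 after sham, -0.0462 without the arrays high in Myl7 and from -0.0202 to 0.1542 with 1 array left out, including -7e-04; and Fbln1 with TAB in wild type, 0.0178 without wild-type sham array 4 and TAB array 1. Deviations of same-numbered arrays of different groups correlated at -0.171 to 0.153 (median -0.0056), with 4 of 24 pairs over 0.1. Those of other pairs correlated at -0.145 to 0.224 (median 0.0006), with 4 of 72 over 0.1, a smaller share. As both medians were near 0, the numbers were not taken to pair samples, though the larger share leaves this unsettled. With a replicate block the counts were 8, 10, 0, 5 and 6. A slide block could not be fitted. Signal over background limits Lox, which passed the filter on dim probes through TAB arrays alone, and the tested Loxl2 probe in CHIP-/- sham.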
